A study of Mus musculus with 4 samples.

Results

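The genes described here are the enzymes that add acetyl groups to histones (writers), those that remove them (erasers) and the bromodomain proteins that bind acetylated histones (readers), measured by RNA sequencing in mouse splenic CD4+ T cells. They were chosen by a rule on gene names, set with earlier results of these data known. The rule took every gene of the expression table with an Hdac, Sirt, Kat or Brd symbol of the numbered families. It also took Crebbp, Ep300, Ncoa1, Ncoa2 and Ncoa3. This gave 37 of 34745 genes. They comprise 12 acetyltransferases (Crebbp, Ep300, Kat2a, Kat2b, Kat5, Kat6a, Kat6b, Kat7, Kat8, Ncoa1, Ncoa2 and Ncoa3), 11 classical histone deacetylases (Hdac1 to Hdac11), 7 sirtuins (Sirt1 to Sirt7) and 7 Brd genes. All 37 had at least 10 reads in each of the 4 libraries, so none was lost to the filter on low counts.

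The cells came from wild type C57BL/6 mice, with 1 library per group. Th17 and Treg cells were taken after 3 days in the culture conditions that drive each of those fates, Th0 cells after 3 days of αCD3/CD28 stimulation, and naive CD4+ T cells straight from the spleen with no culture. Which cytokines the polarising media held, how many mice were used and how pure the cells were is not given in the sources used here. Each comparison sets 1 library against 1 other, so there was no replicate check and no test between conditions, and a ratio describes that pair of libraries. The Th17 and Treg comparisons with Th0 share the Th0 library, and the 3 comparisons with naive share the naive library.

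Acetyltransferases move an acetyl group from acetyl-CoA to lysines of the histone tails, which loosens the contact of histones with DNA and makes docking sites for bromodomains. Classical deacetylases take the group off with the help of zinc, and sirtuins do so by consuming NAD, which ties their activity to the metabolism of the cell. In CD4+ T cells these enzymes also act on transcription factors: Foxp3, the regulator that defines Treg cells, is acetylated by Ep300 and Kat5 and deacetylated by Sirt1, and class IIa deacetylases leave the nucleus after T cell receptor signalling.

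Library totals lay between 10256627 and 12414372 reads over all genes. Levels are given as CPM, read counts scaled to a common library size with TMM factors, in which 1 read was worth between 0.0762 and 0.114 CPM. The rule for a call, higher or lower, was a ratio of at least 2-fold between CPM with 1 added, together with a 95% exact interval of the count ratio that excluded equality. Folds and their intervals are given without the added 1, and the intervals cover counting error only. Il17a, the cytokine that gives Th17 cells their name, had 90.4 CPM in Th17, 14.7 in Treg, 0 in Th0 and 0.245 in naive cells. Foxp3 had 11.3 CPM in Th17, 51.5 in Treg, 1.37 in Th0 and 129 in naive cells, so the Treg library was above the other cultures but below the naive library. The 6 CD4 T cell markers summed to between 2371 and 2970 CPM in the 4 libraries. Markers of most other spleen cells stood apart in the naive library: the 6 macrophage and monocyte markers summed to between 9.27 and 25.8 CPM in the 3 cultures, against 3444 CPM in naive cells, the 6 neutrophil markers to between 1.60 and 10.2, against 1422 CPM, and the 6 B cell markers to between 14.7 and 100.4, against 1439 CPM. The 6 dendritic cell markers summed to between 1.60 and 20.9 CPM in the cultures, against 316 CPM in naive cells, and the 6 erythroid and platelet markers to between 6.18 and 9.22, against 141 CPM. The sum of the 6 CD8 T and NK markers did not stand apart, with 74.9 to 220.4 CPM in the cultures and 115 CPM in naive cells. Among these, Gzmb was called higher and Prf1, Klrb1c and Ncr1 lower in each culture than in naive cells. None of these markers was at 0 in the naive library. Among those at 0 were Camp, Ltf, Cd209a, Siglech, Alas2, Pf4 and Ncr1 in Th17, Camp, Cd209a, Siglech, Xcr1, Alas2 and Pf4 in Treg, and S100a8, Cd209a, Clec9a, Siglech, Klrb1c and Ncr1 in Th0. In such bulk libraries fewer cells of a type and less RNA per cell cannot be told apart. The part of other spleen cells in the ratios to the naive library was not tested for any gene.

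Levels between genes were compared per length, on the authors' FPKM and on CPM per kilobase of the longest GENCODE transcript, because the length behind the FPKM ran from 0.527 times that transcript for Brd9 to 4.26 times for Kat6b. Among the deacetylases Hdac7, a class IIa enzyme best known from thymocytes, ranked first on both scales in all 4 libraries. Its FPKM was 39.7 in Th17, 29.3 in Treg, 42.5 in Th0 and 16.2 in naive cells, which made up 38.2%, 30.6%, 37.3% and 21.4% of the summed FPKM of the 11 deacetylases, in the same order. Among the acetyltransferases Ncoa3, a nuclear receptor coactivator, ranked first on both scales in Th17 (37.02 FPKM) and Treg (35.9 FPKM), and Kat6a, the catalytic subunit of a Brpf complex, ranked first on both in naive cells (42.4 FPKM). In Th0 cells Ncoa3 led by FPKM (31.0) and Kat7 led by CPM per kilobase (51.7, against 49.4 for Ncoa3). Among the sirtuins Sirt2, a cytoplasmic tubulin deacetylase, ranked first on both scales in the 3 cultures, with 16.3 FPKM in Th17, 13.9 in Treg and 13.1 in Th0. In naive cells Sirt2 led by FPKM (9.86, against 9.27 for Sirt7) and Sirt7 led by CPM per kilobase (31.9, against 28.2 for Sirt2). The order of the readers depended on the scale: Brd9 ranked first by FPKM in the 3 cultures but at rank 5 or 6 there by CPM per kilobase, and Brd2 ranked first on both scales in naive cells (32.1 FPKM).

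**Figure D1:**
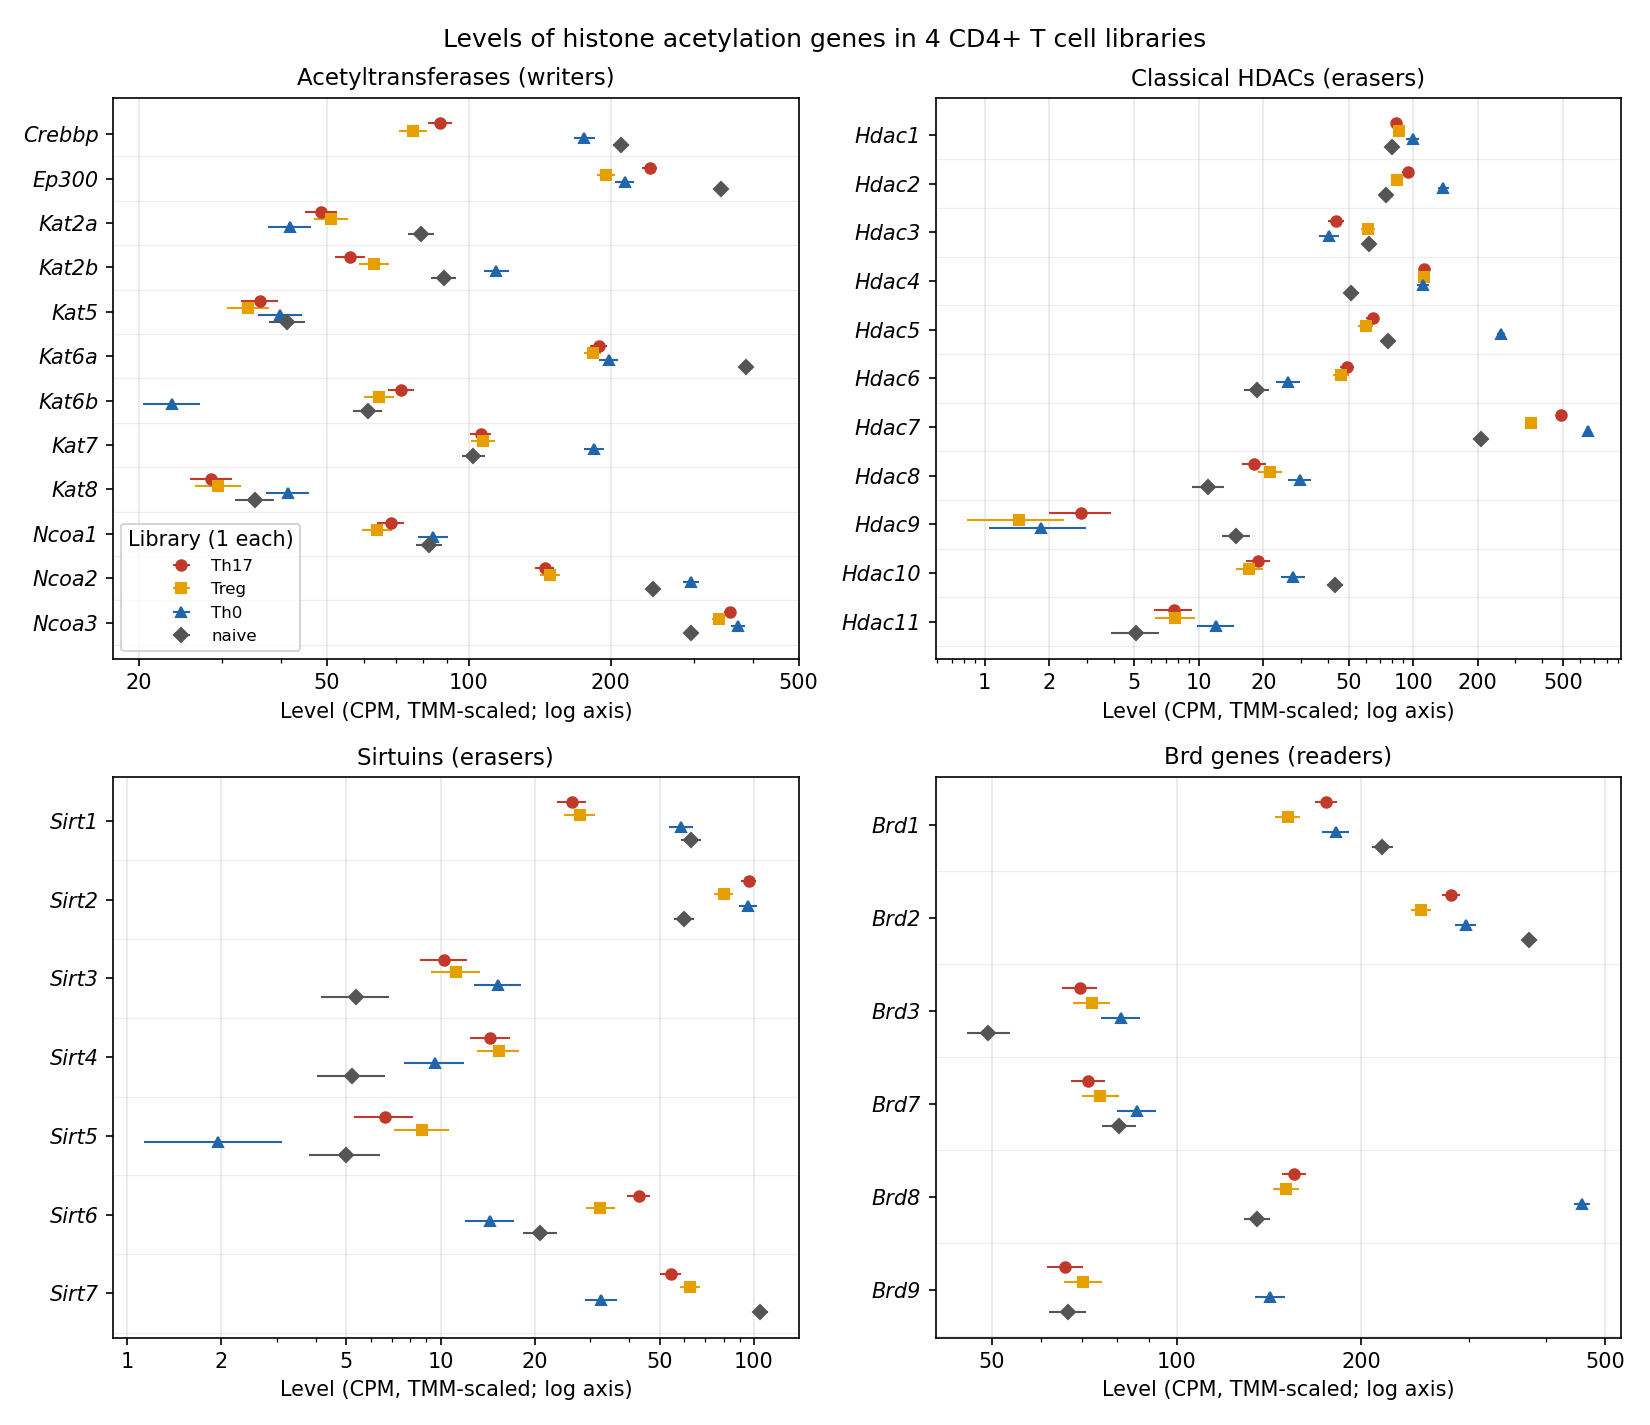
Levels of the genes (rows) in TMM-scaled CPM on log axes, in 4 panels by class, with 1 point per library and lines for the 95% counting interval of the level. Th17 and Treg points lie close together for most genes, and Hdac5, Brd8 and Brd9 stand high in Th0 (258, 458 and 142 CPM) while Kat6b and Sirt5 stand low there (23.6 and 1.95 CPM).

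Which library held the highest level differed from gene to gene. The Th17 library was highest for 4 genes (Kat6b, Hdac6, Sirt2 and Sirt6) and the Treg library for 3 (Hdac4, Sirt4 and Sirt5). The Th0 library was highest for 18 and the naive library for 12. These counts hold for TMM scaling. By the authors' FPKM, which scales by library totals, Th0 stayed highest for Brd8, Brd9, Kat2b, Kat7, Hdac2, Hdac5, Hdac7, Hdac8, Hdac11 and Sirt3. The other genes of the 18, Hdac1 and Ncoa3 among them, were highest in another library. Counts over all genes are not given, so 18 cannot be read as many or few. Of the 37 genes, 21 were called in at least 1 of the 6 comparisons and 16 in none. The share of all genes called in at least 1 comparison was not computed, so 21 cannot be read as many or few. Among those 16 were Ep300, Kat2a, Kat5, Kat7, Kat8, Ncoa1, Ncoa3, Hdac1, Hdac2, Hdac3, Sirt2, Brd1, Brd2, Brd3 and Brd7. Their highest level was between 1.199 times (Brd7, a subunit of a Swi/Snf remodelling complex) and 1.90 times (Kat2a, the SAGA acetyltransferase Gcn5) the lowest. Kat5 (Tip60), Kat8 (the H4 acetyltransferase Mof), Ncoa1, Ncoa3, Brd1, Brd7 and Hdac1 stayed within 1.5-fold over the 4 libraries. Kat2a was called lower in Th0 than in naive cells under 2 of the 4 scalings.

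The comparison of Th17 with Th0 cells asks how culture under polarising conditions differs from stimulation alone. In it 3 of the 37 genes were called higher (Kat6b, Sirt5 and Sirt6), where 20.1% of the 13324 genes tested were called higher, and 7 were called lower (Hdac5, Brd8, Brd9, Crebbp, Kat2b, Ncoa2 and Sirt1), where 12.4% of all genes were. In Treg over Th0, 3 genes were called higher (Kat6b, Sirt5 and Sirt6), against a background of 20.2% of 13138 genes, and 5 were called lower (Hdac5, Brd8, Brd9, Crebbp and Sirt1), against 12%. The median log2 ratio of the 37 genes was −0.25 in Th17 over Th0, where that of all genes tested was 0.09, and −0.26 in Treg over Th0, where that of all genes was 0.08. With library totals in place of TMM scaling these medians turned to 0.06 and 0.08, with 0.36 and 0.39 over all genes. By class, the median was −0.22 and −0.30 for acetyltransferases, −0.41 and −0.44 for classical deacetylases, −0.26 and −0.26 for Brd genes, and 0.54 and 0.62 for sirtuins, in Th17 and in Treg over Th0. With library totals the medians of the acetyltransferases and the Brd genes turned above 0 in both comparisons, while those of deacetylases and sirtuins kept their sign under all 4 scalings.

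Hdac5 was high in Th0. It encodes a class IIa deacetylase that represses Mef2 target genes and is exported from the nucleus when phosphorylated (ENSMUSG00000008855, chr11:102194432-102230166, minus strand, GRCm38). Its level was 64.8 CPM in Th17, 60.1 in Treg, 258 in Th0 and 76.6 in naive cells. Against Th0 it was lower by 3.98-fold in Th17 (95% counting interval 3.68 to 4.31) and by 4.29-fold in Treg (3.94 to 4.69), and Th0 was 3.37-fold above naive cells (3.12 to 3.64). Only the Th0 library was high, and the other libraries lay between 60.1 and 76.6 CPM.

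The other class IIa deacetylases did not share that pattern. Hdac4 had 112 CPM in Th17, 112 in Treg, 111 in Th0 and 51.5 in naive cells, so it was alike in the cultures and low in the naive library. It was called higher in all 3 cultures than in naive cells, by 2.18-fold in Th17 (1.98 to 2.39), 2.18-fold in Treg (1.98 to 2.40) and 2.16-fold in Th0 (1.95 to 2.39), the last under only 2 of the 4 scalings tried. Exons of Hdac4 share 3536 bases with Gm26720 on the other strand, and reads of the pair cannot be told apart without strand information. Hdac7 had 491 CPM in Th17, 355 in Treg, 654 in Th0 and 206 in naive cells, and it was called higher in Th17 (2.38-fold, 2.27 to 2.49) and in Th0 (3.17-fold, 3.02 to 3.32) than in naive cells. In Treg over naive Hdac7 had a log2 ratio of 0.78 and was not called.

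Hdac9, the remaining class IIa gene, whose product restrains Treg function in mice, ran the other way. It had 2.82 CPM in Th17 (37 reads), 1.44 in Treg (16 reads), 1.83 in Th0 (16 reads) and 14.9 in naive cells (183 reads). The naive library was the only high one, and Hdac9 was lower than in naive cells by 5.30-fold in Th17 (3.71 to 7.77), 10.4-fold in Treg (6.21 to 18.5) and 8.16-fold in Th0 (4.89 to 14.6). The naive library also carried the markers of other spleen cells given above, and their part in this difference was not tested. The expression table places Hdac9 at chr12:34371503-34528889, which is only part of the GENCODE gene, chr12:34047580-34917095. Reads from the rest of that gene may not be counted.

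Brd8 and Brd9 were the called readers. Brd8, a subunit of the Kat5 (Tip60) acetyltransferase complex, had 155 CPM in Th17, 151 in Treg, 458 in Th0 and 135 in naive cells. Only Th0 was high: Brd8 was lower than in Th0 by 2.95-fold in Th17 (2.80 to 3.11) and by 3.04-fold in Treg (2.87 to 3.21), and 3.39-fold higher in Th0 than in naive cells (3.20 to 3.59). Brd9, which defines the noncanonical form of the BAF remodelling complex, had 65.8 CPM in Th17, 70.4 in Treg, 142 in Th0 and 66.4 in naive cells. It was lower than in Th0 by 2.16-fold in Th17 (1.98 to 2.36) and by 2.02-fold in Treg (1.84 to 2.21), and 2.14-fold higher in Th0 than in naive cells (1.96 to 2.34). The calls of Brd8 were kept under all 4 scalings, and those of Brd9 under only 2 of them.

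Brd2 and Brd3, readers of the BET family, were not called. Brd2 had 280.5 CPM in Th17, 250.2 in Treg, 296 in Th0 and 376 in naive cells, and Brd3 had 69.6 in Th17, 72.7 in Treg, 81.0 in Th0 and 49.3 in naive cells. Brd2 was highest and Brd3 lowest in the naive library. Brd1, a scaffold of Kat6 and Kat7 complexes, was not called either, and its level lay between 152 and 217 CPM.

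Kat6b, Sirt5 and Sirt6 were low in Th0. Kat6b, the catalytic subunit of a Brpf complex like its paralogue Kat6a, had 72.0 CPM in Th17, 64.7 in Treg, 23.6 in Th0 and 61.1 in naive cells. It was higher than in Th0 by 3.05-fold in Th17 (2.62 to 3.57) and by 2.74-fold in Treg (2.35 to 3.22), and 2.59-fold lower in Th0 than in naive cells (2.22 to 3.04). The 3 other libraries lay between 61.1 and 72.0 CPM, so Th0 alone was low. Sirt6, a chromatin deacetylase that acts on histone H3, had 42.8 CPM in Th17, 32.4 in Treg, 14.4 in Th0 and 20.7 in naive cells. It was higher than in Th0 by 2.97-fold in Th17 (2.44 to 3.63) and by 2.24-fold in Treg (1.83 to 2.77), and 2.06-fold higher in Th17 than in naive cells (1.78 to 2.40). The call against naive cells was lost under DESeq2 size factors, a pseudocount of 5 CPM and the authors' FPKM, and the call in Treg over Th0 with a pseudocount of 5 CPM.

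Sirt5, a mitochondrial enzyme that removes succinyl and malonyl groups, rested on few reads. It had 6.63 CPM in Th17 (87 reads), 8.75 in Treg (97 reads), 1.95 in Th0 (17 reads) and 4.98 in naive cells (61 reads). It was higher than in Th0 by 3.41-fold in Th17 (2.01 to 6.11) and by 4.495-fold in Treg (2.67 to 8.03), and 2.56-fold lower in Th0 than in naive cells (1.48 to 4.67). All 3 calls were lost with a pseudocount of 5 CPM, and parts of the Sirt5 transcripts have near-identical copies elsewhere in the genome, Wdr31 among them, between which reads may be split.

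Promoter sequence is shown for 4 members that separate Th0 from the polarised cultures, Hdac5 and Brd9 as genes high in Th0 and Kat6b and Sirt6 as genes low there. Each is the 250 bases before the farthest upstream RefSeq start in GRCm38.p6, 5′ to 3′ on the strand of the gene. Capitals mark matches on either strand to the GC box GGGCGG, the CCAAT box CCAAT, the ETS core CCGGAA or the HIF core ACGTG. The windows are chr11:102230173-102230422 on the minus strand for Hdac5, chr13:73937561-73937810 on the plus strand for Brd9, chr14:21499520-21499769 on the plus strand for Kat6b and chr10:81627567-81627816 on the minus strand for Sirt6. The Kat6b window lies inside the locus that the expression table gives and the Sirt6 window overlaps its end, since the annotations place those starts differently.
Hdac5: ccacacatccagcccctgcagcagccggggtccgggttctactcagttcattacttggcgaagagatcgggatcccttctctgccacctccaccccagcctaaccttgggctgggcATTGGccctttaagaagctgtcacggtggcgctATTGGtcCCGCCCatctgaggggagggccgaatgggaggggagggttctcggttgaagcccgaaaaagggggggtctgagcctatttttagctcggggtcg
Brd9: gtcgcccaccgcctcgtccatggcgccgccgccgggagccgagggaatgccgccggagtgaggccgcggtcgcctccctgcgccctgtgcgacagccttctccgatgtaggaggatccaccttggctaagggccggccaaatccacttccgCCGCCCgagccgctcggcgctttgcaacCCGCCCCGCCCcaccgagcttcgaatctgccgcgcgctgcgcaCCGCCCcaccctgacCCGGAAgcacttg
Kat6b: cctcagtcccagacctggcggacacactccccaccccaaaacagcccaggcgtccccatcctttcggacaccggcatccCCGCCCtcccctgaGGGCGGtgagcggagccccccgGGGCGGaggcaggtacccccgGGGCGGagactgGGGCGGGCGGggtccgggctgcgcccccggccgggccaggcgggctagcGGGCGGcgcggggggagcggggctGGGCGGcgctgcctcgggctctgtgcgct
Sirt6: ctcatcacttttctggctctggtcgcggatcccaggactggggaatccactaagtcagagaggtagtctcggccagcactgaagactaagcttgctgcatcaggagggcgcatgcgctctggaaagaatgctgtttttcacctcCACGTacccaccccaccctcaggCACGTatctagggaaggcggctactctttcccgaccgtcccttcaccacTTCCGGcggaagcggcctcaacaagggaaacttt
Hdac5 held 1 GC box and 2 CCAAT boxes, Brd9 held 4 GC boxes and 1 ETS core, Kat6b held 8 GC boxes and none of the other motifs, and Sirt6 held 1 ETS core and 2 HIF cores. GC boxes were thus present both in genes high in Th0 and in a gene low there. Of the 37 genes, 29 had an entry in the RefSeq promoter table, and in the 250 bases before the start 18 of them (62.1%) held a GC box, which 33.0% of 27025 promoters held. The ETS core was in 8 members (27.6%), against 12.3% of all promoters, the CCAAT box in 11 (37.9%), against 34.5%, and the HIF core, which the E-box CACGTG contains, in 7 (24.1%), against 16.5%. E-boxes were in 2 members, the AP-1 site TGANTCA in 1, the STAT site TTCNNNGAA in 1 and the CRE TGACGTCA in 0, where 6.04%, 6.85%, 7.14% and 1.6% of all promoters held them. The median GC content of these windows was 62.4% for members and 52.0% for all promoters, and a match is a run of letters, not a bound site.

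Among the writers, Crebbp, the acetyltransferase paralogue of Ep300, had 86.9 CPM in Th17, 76.1 in Treg, 176 in Th0 and 210.0 in naive cells. Both polarised cultures were low: Crebbp was lower than in Th0 by 2.02-fold in Th17 (1.87 to 2.19) and by 2.31-fold in Treg (2.12 to 2.52), and lower than in naive cells by 2.42-fold in Th17 (2.25 to 2.59) and by 2.76-fold in Treg (2.55 to 2.99). Ep300 had 242 CPM in Th17, 195 in Treg, 214 in Th0 and 343 in naive cells and was not called in any comparison. Ncoa2 had 145 CPM in Th17, 148 in Treg, 296 in Th0 and 246 in naive cells. It was called 2.04-fold lower in Th17 than in Th0 (1.92 to 2.17), and Treg was just short of the rule, with a log2 ratio of −0.99. Kat2b (Pcaf), the paralogue of Kat2a, had 56.0 CPM in Th17, 63.0 in Treg, 115 in Th0 and 88.5 in naive cells, and was called only in Th17 over Th0 (2.04-fold lower, 1.86 to 2.25). With library totals or upper quartile scaling the calls of Crebbp, Ncoa2 and Kat2b in Th17 over Th0 were lost, whereas those of Crebbp against naive cells were kept.

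Sirt1, a nuclear deacetylase of histones and transcription factors, was low in the same libraries as Crebbp. Its level was 26.2 CPM in Th17, 27.8 in Treg, 58.5 in Th0 and 63.0 in naive cells. It was lower than in Th0 by 2.23-fold in Th17 (1.94 to 2.57) and by 2.11-fold in Treg (1.82 to 2.43), and lower than in naive cells by 2.41-fold in Th17 (2.12 to 2.74) and by 2.27-fold in Treg (1.99 to 2.60). The calls against Th0 held under 2 of the 4 scalings and those against naive cells under all 4.

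**Figure D2:**
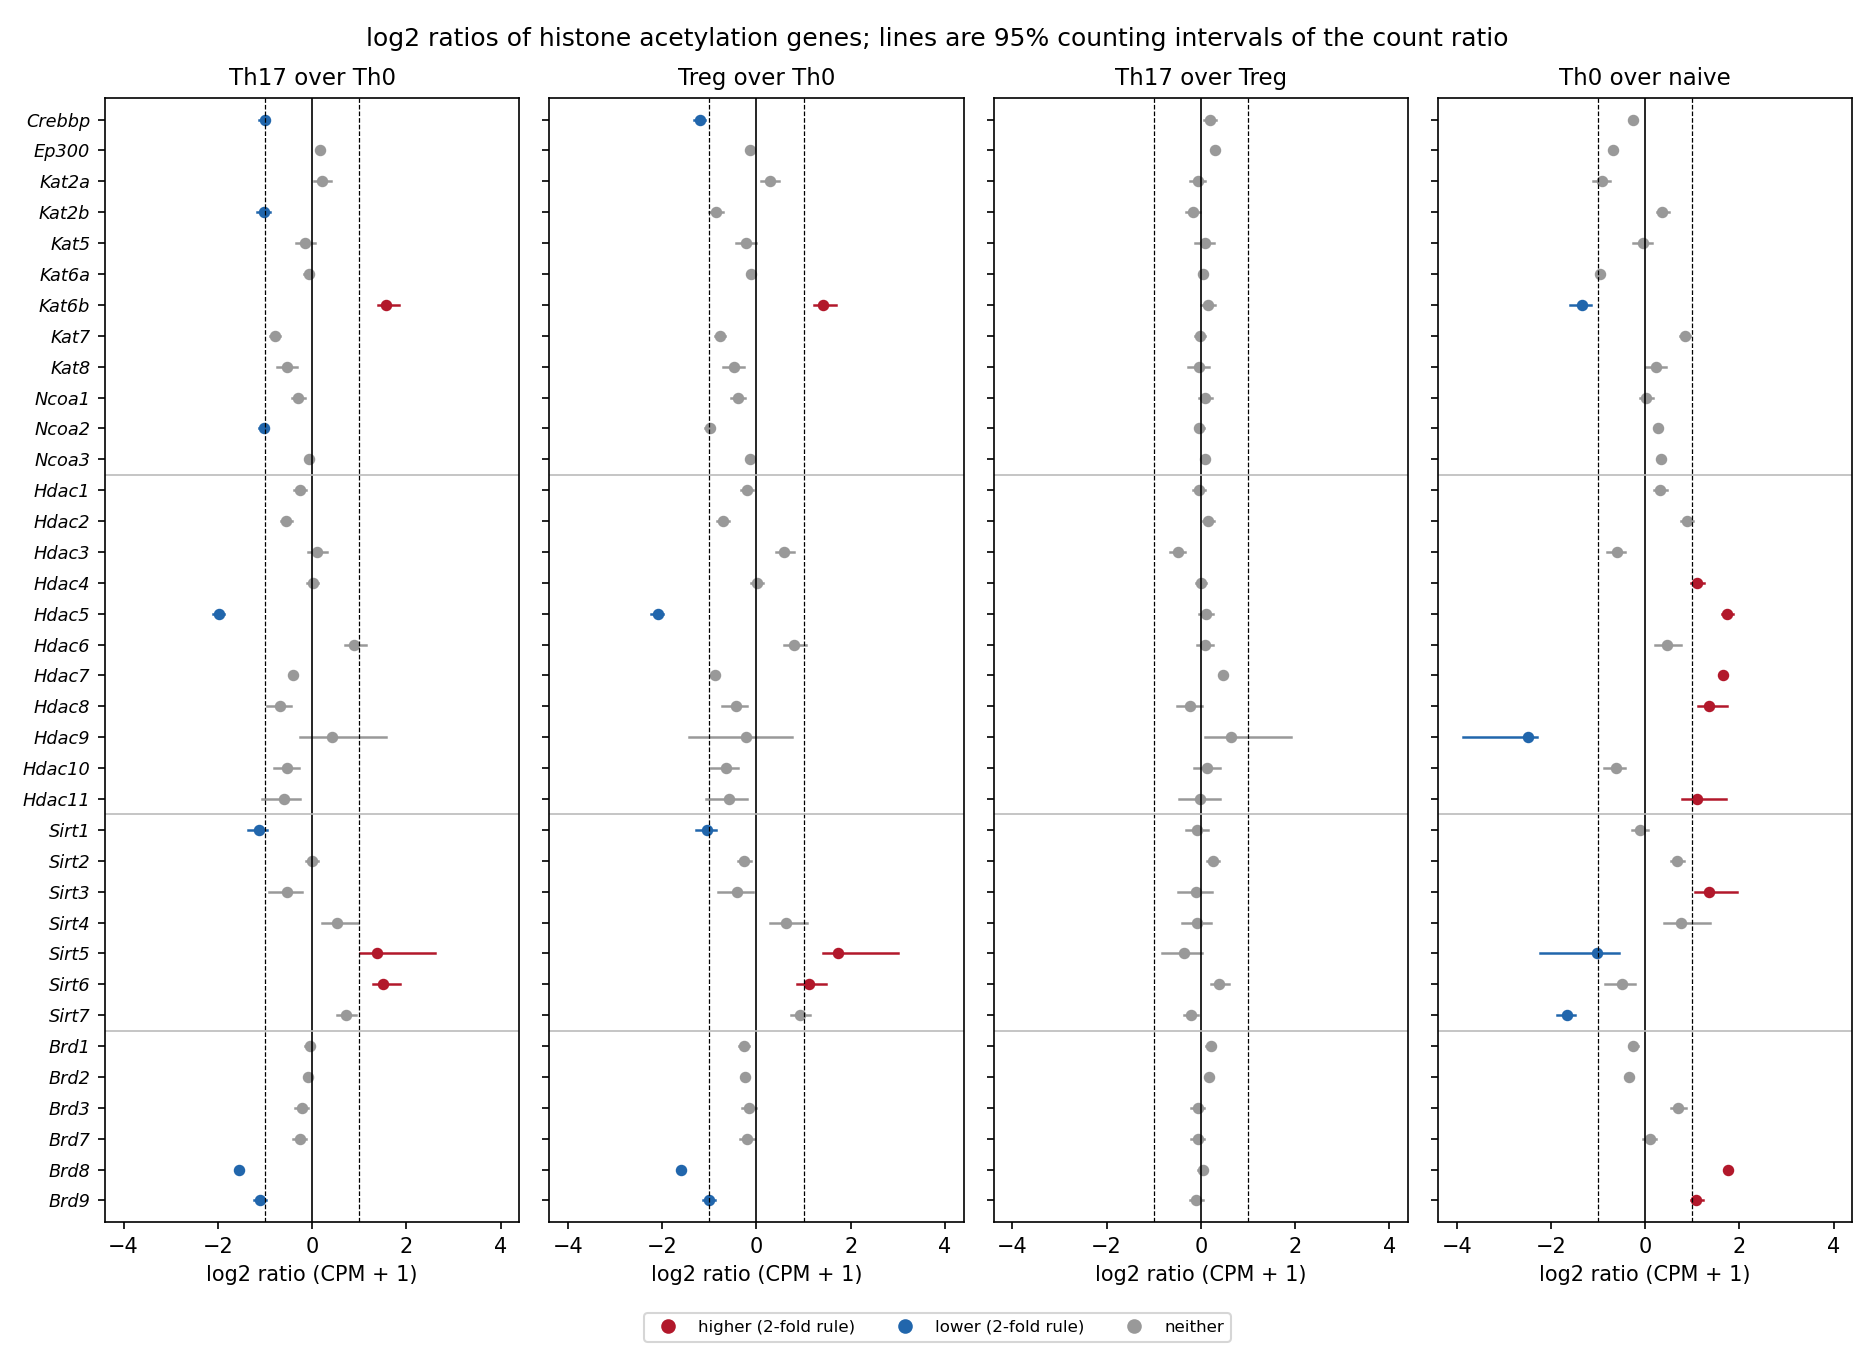
Log2 ratio of CPM + 1 for the genes in 4 of the 6 comparisons, with the 95% counting interval of the count ratio as a line, dashed lines at 2-fold and colours for the call. Hdac5, Brd8, Brd9, Crebbp and Sirt1 are called lower and Kat6b, Sirt5 and Sirt6 higher in both comparisons with Th0, whereas no gene is called in Th17 over Treg.

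Th17 and Treg were close to each other. None of the 37 genes was called higher or lower in Th17 over Treg, where 1.91% and 1.24% of 13346 genes were called. The median log2 ratio of the 37 was 0.02, and the counting interval excluded equality for 14 of them (37.8%), compared with 43.4% of all genes tested. Hdac7 was 1.38-fold higher in Th17 (1.33 to 1.44). Hdac3, the catalytic subunit of the NCoR and SMRT corepressors, had 43.7 CPM in Th17 and 61.5 in Treg, which was 1.41-fold lower in Th17 (1.26 to 1.57). Both differences were below the 2-fold rule, and 1 library per group cannot show whether they exceed the spread between cultures.

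The comparison of Th0 with naive cells sets stimulation against the unstimulated state. It also sets a library low in most markers of other spleen cells against one high in them. It had 8 genes called higher (Hdac4, Hdac5, Hdac7, Hdac8, Hdac11, Sirt3, Brd8 and Brd9), against 18.5% of 13995 genes, and 4 called lower (Hdac9, Kat6b, Sirt5 and Sirt7), against 27.2%. Classical deacetylases made up 5 of the 8, with a median log2 ratio of 0.88 over the class, whereas the median was −0.01 for acetyltransferases, −0.11 for sirtuins, 0.09 for Brd genes and −0.13 for all genes tested. Under library totals the deacetylase median was 0.61, with 3 called higher, and that of the Brd genes turned to −0.18. Library totals and upper quartile scaling each called 5 of the 37 genes higher and 6 lower, Kat2a and Kat6a being the added lower ones, so the balance of 8 to 4 turned. The shares of all genes called higher and lower moved the same way, to 13.5% and 32.0% under library totals. Under upper quartile scaling they were 16.0% and 29.2%. Cell division genes moved with this comparison: the 10 listed summed to 5499 CPM in Th0 and 489 CPM in naive cells. Neither their part in these ratios nor that of the other spleen cells was tested.

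Hdac8, an X-linked class I deacetylase, had 18.1 CPM in Th17, 21.5 in Treg, 29.5 in Th0 and 11.02 in naive cells, and was 2.68-fold higher in Th0 than in naive cells (2.17 to 3.32). Sirt3, the main mitochondrial deacetylase, had 10.3 CPM in Th17, 11.2 in Treg, 15.2 in Th0 and 5.39 in naive cells, and was 2.83-fold higher in Th0 than in naive cells (2.09 to 3.85). Hdac11, the only class IV enzyme, had 7.62 CPM in Th17, 7.76 in Treg, 12.02 in Th0 and 5.06 in naive cells, and was 2.37-fold higher in Th0 than in naive cells (1.72 to 3.30), a call held under only 2 of the 4 scalings. In all 3 genes Th0 was highest and naive lowest, on between 62 and 258 reads per library. Exons of Sirt3 share 760 bases with Ric8a and Psmd13 on the other strand, and those of Hdac11 share 690 bases with 2 antisense genes, so part of their reads may belong to those neighbours. Sirt7, a nucleolar histone H3 deacetylase, had 54.2 CPM in Th17, 62.5 in Treg, 32.5 in Th0 and 105 in naive cells. It was 3.22-fold lower in Th0 than in naive cells (2.83 to 3.67), and its log2 ratio to naive in Th17 was −0.94, just short of the rule.

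Hdac1 and Hdac2, the paired catalytic subunits of the Sin3, NuRD and CoREST corepressors, were not called. Hdac2 had 94.3 CPM in Th17, 84.3 in Treg, 138 in Th0 and 74.5 in naive cells, and Hdac1 had 83.6 in Th17, 86.3 in Treg, 99.4 in Th0 and 79.4 in naive cells. Hdac1 has a near-identical copy, Gm10093, which itself carried 1102 reads in Th17, 975 in Treg, 569 in Th0 and 1085 in naive cells, so the split of reads between them is uncertain. Kat7, which acetylates H3 and H4 near replication origins, had 106 CPM in Th17, 107 in Treg, 184 in Th0 and 102 in naive cells and did not reach the rule in any comparison.

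In Th17 over naive, 5 genes were called higher (Hdac4, Hdac6, Hdac7, Sirt4 and Sirt6), against 15.5% of 14523 genes, and 5 lower (Crebbp, Kat6a, Hdac9, Hdac10 and Sirt1), against 17.7%. In Treg over naive, 3 were called higher (Hdac4, Hdac6 and Sirt4), against 14.9% of 14350 genes, and 5 lower (Crebbp, Kat6a, Hdac9, Hdac10 and Sirt1), against 16.9%. The median log2 ratio of the 37 genes was −0.17 in Th17 and −0.01 in Treg over naive, where that of all genes was −0.01 and −0.02.

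Hdac6, the cytoplasmic deacetylase of tubulin, had 49.2 CPM in Th17, 46.2 in Treg, 26.1 in Th0 and 18.6 in naive cells. It was higher than in naive cells by 2.64-fold in Th17 (2.27 to 3.09) and by 2.48-fold in Treg (2.12 to 2.91), and the log2 ratio of Th17 over Th0 was 0.89. Sirt4, another mitochondrial sirtuin, had 14.4 CPM in Th17, 15.3 in Treg, 9.62 in Th0 and 5.23 in naive cells, and was higher than in naive cells by 2.76-fold in Th17 (2.07 to 3.72) and by 2.93-fold in Treg (2.19 to 3.97). For both genes the polarised cultures were highest and the naive library lowest. Kat6a had 188 CPM in Th17, 183 in Treg, 198 in Th0 and 388 in naive cells, and was lower than in naive cells by 2.06-fold in Th17 (1.96 to 2.16) and by 2.12-fold in Treg (2.01 to 2.23), the call in Th17 being lost under library totals. Hdac10, a deacetylase of polyamines, had 18.9 CPM in Th17, 17.2 in Treg, 27.6 in Th0 and 43.0 in naive cells, and was lower than in naive cells by 2.28-fold in Th17 (1.96 to 2.66) and by 2.50-fold in Treg (2.11 to 2.96). The part of the other spleen cells in the naive levels of Kat6a and Hdac10 was not tested.

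The balance within paralogue pairs was read from raw counts in the same library, which no scaling affects. It was computed for 7 pairs as a ratio of reads, not of transcripts per length. The ratio of Crebbp to Ep300 reads was 0.359 in Th17 (0.336 to 0.385), 0.390 in Treg (0.359 to 0.422), 0.821 in Th0 (0.767 to 0.879) and 0.613 in naive cells (0.583 to 0.644). The intervals of both polarised cultures lay below those of Th0 and naive cells, and against Th0 the ratio was lower by 2.29-fold in Th17 and by 2.11-fold in Treg. Ncoa2 to Ncoa3 showed the same split, with 0.405 in Th17, 0.439 in Treg, 0.795 in Th0 and 0.831 in naive cells.

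In other pairs Th0 stood at one end. Kat2a to Kat2b was 0.869 in Th17, 0.811 in Treg, 0.365 in Th0 and 0.895 in naive cells, so Th0 alone was low. Hdac4 to Hdac5 was 1.73 in Th17, 1.87 in Treg, 0.432 in Th0 and 0.673 in naive cells, a 4.01-fold higher ratio in Th17 and a 4.33-fold higher one in Treg than in Th0. Kat6a to Kat6b was 2.62 in Th17, 2.83 in Treg, 8.40 in Th0 and 6.34 in naive cells, with the polarised cultures below the rest. The remaining pairs spanned narrower ranges: Hdac1 to Hdac2 lay between 0.719 and 1.07 and Hdac4 to Hdac7 between 0.170 and 0.316, and in both Th0 was lowest.

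**Figure D3:**
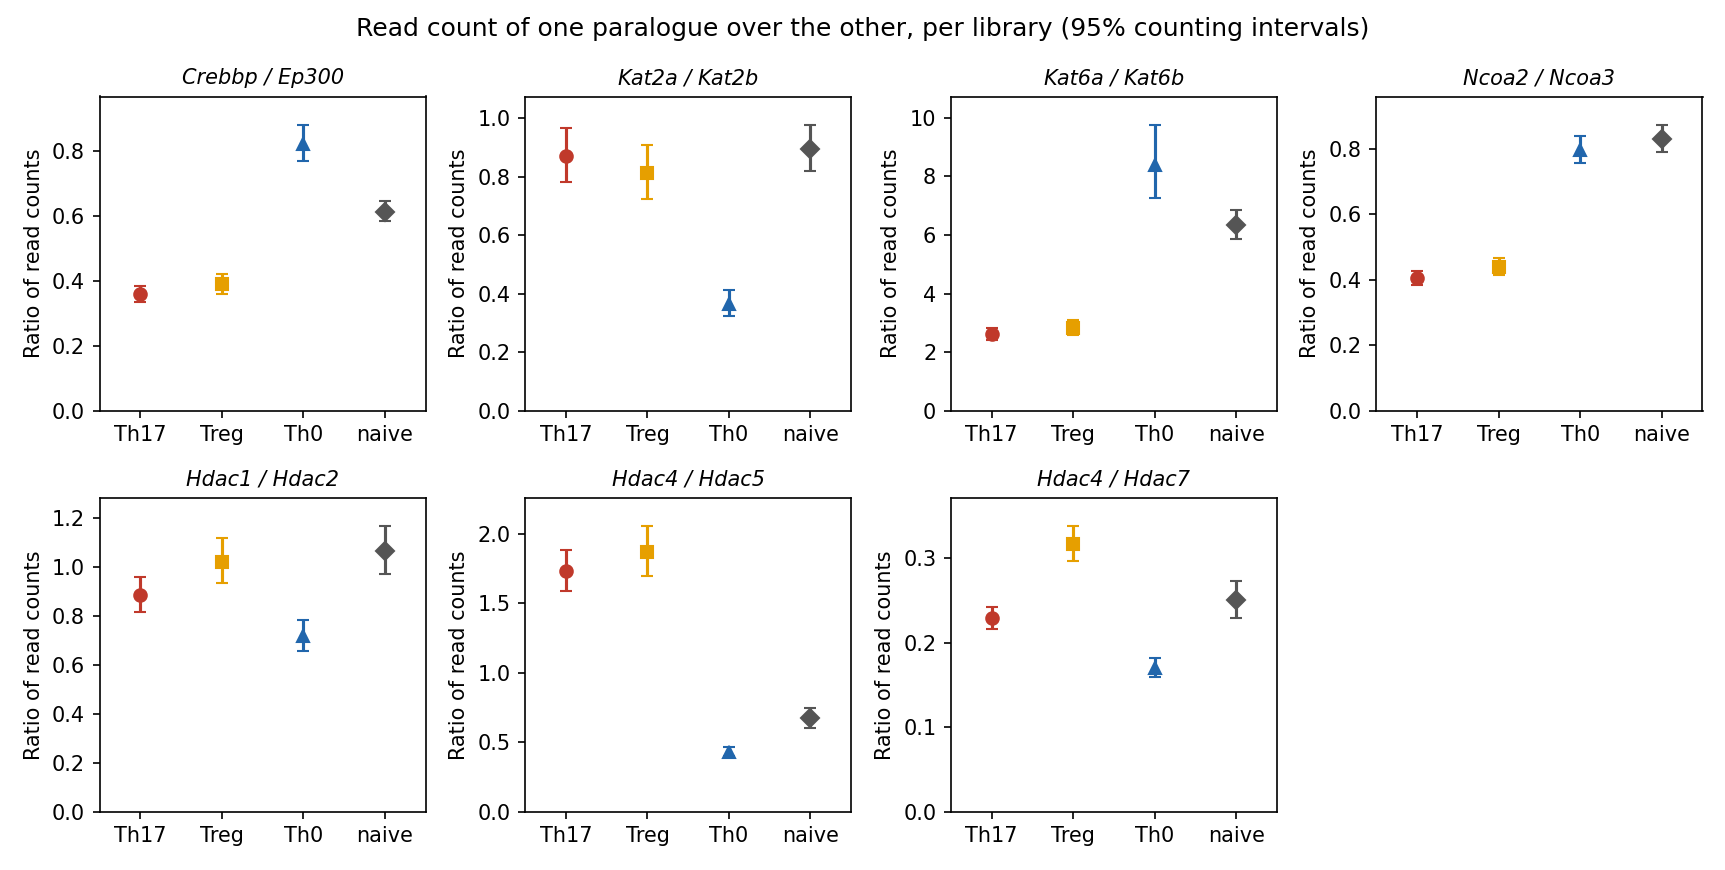
Ratio of the read counts of 2 paralogues in each library, for 7 pairs, with 95% counting intervals as bars and axes that start at 0. Crebbp over Ep300 and Ncoa2 over Ncoa3 are low in Th17 and Treg (0.359 and 0.390, 0.405 and 0.439), and Kat2a over Kat2b is low in Th0 (0.365).

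The partners of these enzymes were read from lists of complex subunits and supply pathways. Of 33 genes of HDAC corepressor complexes, 2 were called higher and 5 lower in Th17 over Th0, 1 higher and 1 lower in Treg over Th0, and 7 higher and 2 lower in Th0 over naive. Over all genes 20.1% were called higher and 12.4% lower in Th17 over Th0, 20.2% and 12% in Treg over Th0, and 18.5% and 27.2% in Th0 over naive. Under library totals these shares were 26.5% and 6.92%, 27.6% and 6.17%, and 13.5% and 32.0%. The counts of this and the following lists stand against the shares of the same scaling. The median log2 ratios of the corepressor genes were −0.26, −0.24 and 0.20 in the same order. Under library totals these medians turned to 0.05, 0.10 and −0.08, and the counts to 4 higher and 2 lower, 3 higher and 0 lower, and 4 higher and 5 lower. Suds3, a Sin3 subunit, had 98.3 CPM in Th17, 128 in Treg and 261 in Th0 cells, and Brms1l, another Sin3 partner, had 35.2 CPM in Th17, 41.2 in Treg and 8.59 in Th0 cells. Gatad2b, a NuRD subunit, separated the polarised cultures, with 57.8 CPM in Th17 and 155 in Treg, 2.68-fold lower in Th17.

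Of 39 subunits of acetyltransferase complexes, 3 were called higher and 3 lower in Th17 over Th0 (median log2 ratio −0.40), 3 higher and 4 lower in Treg over Th0 (−0.31), and 5 higher and 4 lower in Th0 over naive (−0.04). Under library totals the counts were 4 higher and 1 lower in Th17 over Th0 (−0.09), 4 higher and 1 lower in Treg over Th0, where the median turned to 0.03, and 3 higher and 8 lower in Th0 over naive (−0.29). Morf4l1, a chromodomain subunit of the Kat5 complex, had 84.4 CPM in Th17, 89.6 in Treg and 302 in Th0 cells. Jade2, a scaffold of the Kat7 complex, had 97.4 CPM in Th17, 94.5 in Treg, 38.5 in Th0 and 183 in naive cells, and Tada2b, a SAGA adaptor of Kat2a and Kat2b, had 21.0, 16.2, 6.30 and 47.0 CPM in the same 4 libraries. Jade2 and Tada2b were thus low in Th0, as Kat6b was, while Morf4l1 was high there, as Brd8 was. Of the enzymes of these complexes, Kat7 and Kat2b were highest in Th0 (184 and 114.5 CPM), while Kat2a was lowest there (41.8 CPM). Kat5 was not called in any comparison. Of 9 other acetyltransferases only Gtf3c4 was called in Th17 or Treg over Th0, with 46.3 CPM in Th17, 43.5 in Treg and 20.2 in Th0 cells.

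Of 26 other acetyl-lysine readers tested, 1 was called higher and 8 lower in Th17 over Th0 (median log2 ratio −0.52), and 0 higher and 10 lower in Treg over Th0 (−0.53), whereas in Th0 over naive 7 of 25 were called higher and 4 lower (0.31). Under library totals the counts were 2 higher and 3 lower in Th17 over Th0, 1 higher and 2 lower in Treg over Th0, and 6 higher and 5 lower in Th0 over naive, with medians of the same signs. Mllt3, a YEATS domain reader of the super elongation complex, had 107 CPM in Th17, 123 in Treg, 319 in Th0 and 94.2 in naive cells. Phip, a bromodomain and WD repeat protein, had 144 CPM in Th17, 162 in Treg, 458 in Th0 and 236 in naive cells. The 10 cell division genes moved with them, summing to 2526 CPM in Th17, 2869 in Treg and 5499 in Th0, and their part was not tested.

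Of 8 genes of acetyl-CoA supply, 1 was called higher and 1 lower in Th17 over Th0 and 0 in Treg over Th0, and in Th0 over naive 1 was called higher and 0 lower, which under library totals became 1 higher and 3 lower. Acly, which makes acetyl-CoA from citrate in the cytosol, had 363 CPM in Th17, 324 in Treg and 177 in Th0 cells, and Acss1, a mitochondrial acetate-activating enzyme, had 14.6 CPM in Th17, 21.0 in Treg and 39.3 in Th0 cells. Slc25a1, the mitochondrial citrate carrier, was called higher than naive in each culture, with 90.8 CPM in Th17, 88.8 in Treg, 81.4 in Th0 and 29.5 in naive cells. Of 13 NAD genes tested, 0 were called higher and 1 lower in each comparison with Th0, and under library totals 3 higher and 1 lower in Th17 over Th0 and 3 higher and 0 lower in Treg over Th0. In Th0 over naive 1 was called higher and 2 lower, and 1 higher and 3 lower under library totals. Nmrk1, a nicotinamide riboside kinase, was higher in Th0 (24.5 CPM) than in naive cells (6.12 CPM). Nadk, which makes NADP from NAD, was lower in Th0 (64.8 CPM) than in naive cells (136 CPM), as was Qprt, an enzyme of NAD synthesis from tryptophan (5.95 CPM in Th0, 17.97 in naive cells). Of 12 genes of P-TEFb and its regulators, 0 were called in Th17 over Th0, 1 was called lower in Treg over Th0, and 1 was called higher and 2 lower in Th0 over naive. Under library totals 2 were called higher in Th17 over Th0 and 1 in Treg over Th0. Hexim1, an inhibitor of P-TEFb, had 23.5 CPM in Th17, 22.9 in Treg, 21.9 in Th0 and 167 in naive cells, which made it 7.62-fold lower in Th0 than in naive cells.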

How the data were processed

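RNA was sequenced from 4 libraries of mouse splenic CD4+ T cells. The authors deposited 1 table with whole-number read counts per gene, not normalized, and FPKM values, per the file headers. Bowtie2, RSEM, mm10 and GRCm38.p6 are named in the submitters' processing notes with no version or role. Strandedness and annotation: not given in the sources used here. The deposited FPKM equalled the count over a gene length and the table total, and the length was the same in every library (tolerance 0.1%) for 8988 of 8988 genes that had 50 or more counts in each. Counts were scaled with TMM factors (edgeR 4.0.16 in R 4.3.3), 1.06 for Th17, 1.08 for Treg, 0.850 for Th0 and 1.03 for naive, from genes reaching 10 counts in any library. Each of 6 comparisons took genes with at least 10 counts in 1 of its 2 libraries, log2 ratios of CPM + 1, and 95% exact conditional (Clopper-Pearson) intervals of the count ratio (scipy 1.17.1). These cover counting error only, because each group has 1 library, and no p-value was computed. Reads carry no molecular identifiers, and the intervals take each read as an independent count, so they may be too narrow. The steps were run on simulated counts that held counting error only. That run cannot show how calls fare under spread between cultures or errors of scaling.

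Members and lists were chosen with earlier results of these data known. Values in all libraries are printed for members called in at least 1 comparison, for the member with the highest FPKM of its class and, chosen after their values were seen, for some uncalled relatives. Of each list, named genes are among the up to 4 with the largest absolute log2 ratio at 10 CPM or more in 1 library of a comparison. The listed symbols Mideas, Phf15, Phf16, Phf17, Sgf29 and Kat14 were not matched in the table. Of these genes, Phf15, Phf16, Phf17 and Kat14 were matched and used under their other symbols Jade2, Jade3, Jade1 and Csrp2bp. The values of 1 member, which the counts and medians include, are not reported here. Exon overlaps came from GENCODE vM21, and near-identical copies (at least 300 bases at 95% identity) from minimap2 2.31. Promoters came from RefSeq (GRCm38.p6). Alternatives were library totals, DESeq2 1.42.0 size factors and upper quartile scaling, pseudocounts of 0.25 and 5 CPM, no count filter, the authors' FPKM, thinning to the shallowest library and a 1.5-fold rule. TMM of the 3 cultured libraries and CPM per kilobase of the longest GENCODE transcript were added after seeing the data.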

Additional observations from a re-analysis of the deposited data

How the results depend on the processing

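Of 48 calls (a gene in a comparison), 35 held under all 4 scalings, 19 under every alternative and 0 reversed, and over all alternatives 60 of 450 checks lost a call: 24 under the authors' FPKM, 13 with a pseudocount of 5 CPM, 12 under library totals, 10 under upper quartile scaling and 1 under DESeq2 size factors. Thinning and TMM of the 3 cultured libraries, the last chosen after seeing the data, lost none. The pseudocount of 0.25 CPM, no count filter and the 1.5-fold rule cannot lose a call by construction. The 450 checks include them, so these settings say nothing of how firm a call is. Library totals moved the median log2 ratio of all genes by 0.30 in Th17 over Th0, 0.33 in Treg over Th0 and −0.26 in Th0 over naive, and upper quartile scaling by 0.14, 0.15 and −0.12. Under library totals 79.3% of all calls in Th17 over Th0 were higher (61.9% under TMM), 81.8% in Treg over Th0 (62.7%) and 29.6% in Th0 over naive (40.5%). Upper quartile scaling gave 72.5% in Treg over Th0, and the authors' FPKM gave 76.2% and 78.4% in the comparisons of Th17 and Treg with Th0.

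In Th17 over Th0 the 3 members called higher became 5 under library totals and 5 under the 1.5-fold rule, and the 7 called lower became 2 under library totals, 2 under upper quartile scaling, 2 under the authors' FPKM and 11 under the 1.5-fold rule. The shares of all genes called higher and lower were 26.5% and 6.92% under library totals and 31.9% and 24.5% under the 1.5-fold rule. They were 23.1% and 9.34% under upper quartile scaling and 16.4% and 5.11% under the authors' FPKM. In Treg over Th0 the 3 called higher became 5 under library totals, 1 with a pseudocount of 5 CPM and 7 under the 1.5-fold rule, and the 5 called lower became 2 under library totals, 3 under upper quartile scaling, 3 with a pseudocount of 5 CPM, 2 under the authors' FPKM and 12 under the 1.5-fold rule. Here the shares of all genes were 27.6% and 6.17% under library totals and 23.3% and 8.83% under upper quartile scaling. The pseudocount of 5 CPM gave 10.2% and 8.5%. The authors' FPKM gave 16.5% and 4.54%, and the 1.5-fold rule 31.5% and 23.7%. In Th17 over Treg the 1.5-fold rule called 1 gene higher, Hdac9, on 37 reads in Th17 and 16 in Treg. That rule called 6.14% of all genes higher and 5.44% lower. In Th17 over naive the 5 called higher became 3 with a pseudocount of 5 CPM, 2 under the authors' FPKM and 8 under the 1.5-fold rule, and the 5 called lower became 2 under the authors' FPKM and 10 under the 1.5-fold rule. Shares over all genes were 9.36% and 11.1% with that pseudocount, 10.9% and 12.1% under FPKM and 25.5% and 27.3% under the 1.5-fold rule. In Treg over naive the 3 called higher became 8 under the 1.5-fold rule, and the 5 called lower became 3 under the authors' FPKM and 11 under the 1.5-fold rule. Shares over all genes were 24.7% and 26.5% under the 1.5-fold rule and 10.9% and 11.3% under FPKM. In Th0 over naive the 8 called higher became 5 under library totals, 5 under upper quartile scaling, 3 under the authors' FPKM and 13 under the 1.5-fold rule, and the 4 called lower became 6 under library totals, 6 under upper quartile scaling and 9 under the 1.5-fold rule. The setting with the authors' FPKM by construction scales by library totals and adds 1 to FPKM in place of CPM. Apart from the looser rule, the cause of these changes was not tested. No paired analysis was possible because each group has 1 library and the labels give no shared replicate number. Counts under 100 in at least 1 library limit Hdac9, Hdac11, Sirt3, Sirt4 and Sirt5.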
